A study of Bos taurus with 50 samples.

Results

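Messenger RNA of 63 ion channel, ion pump and aquaporin genes was followed in biopsies of bovine endometrium, taken from lactating dairy cows in week 5 or week 9 after calving. The genes were taken by symbol from the lists of differentially expressed genes that the study published for cyclicity, week and uterine microbiota, which hold 2729 genes, 2321 of them with a symbol. Symbols beginning with KCN, SCN, CACN, TRP, CLCN, CLIC, ANO, CHRN, GRI, P2R, AQP, ATP1, ATP2 or ATP6 and related stems were kept, and all 63 were found in the count table of 18830 Ensembl genes. Because the lists came from these libraries, the genes had been chosen for differences between groups: 33 came from the list for week 9 against week 5 in cows not cycling at week 5, 18 from the list for cyclicity at week 5, 2 from the week list of cycling cows, 2 from the list for cyclicity at week 9, and 15 from microbiota lists alone. The microbiota lists had been drawn, with another regressor, from the libraries of CycW5 and NoCycW5 cows, at week 5 for 4 of these lists and at week 9 for 1. A comparison that shares a group of cows at the same week with a list that named a gene is therefore given here as a description of that gene, with no test. The genes comprised 13 for potassium channels and their subunits, 9 for chloride channels and exchangers, 8 for ligand-gated and purinergic receptors, 7 for the vacuolar proton pump, 6 for voltage-gated calcium channels, 5 for transient receptor potential (TRP) channels, 5 for sodium and calcium pumps, 4 for sodium channels, 3 for P5-type ATPases, 2 for aquaporins and 1, ITPRIPL1, that the symbol pattern caught although it encodes neither a channel nor a pump.

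CycW5 cows were cycling at week 5 with a corpus luteum and circulating progesterone (P4), NoCycW5 cows were not cycling at week 5, and CycNoP4 cows had begun to cycle but were without P4 influence on the day of the week 5 biopsy. Before week 9 every cow received gonadotropin-releasing hormone, an intravaginal P4 insert and prostaglandin, so that all groups were biopsied on the same luteal day of a synchronised cycle. Libraries numbered 12 (week 5) and 11 (week 9) for NoCycW5, 10 and 10 for CycW5, and 4 and 3 for CycNoP4, a group that the study left out of its analysis.

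Luminal and glandular epithelium of the uterus sets the volume and the ionic make-up of the fluid in which the embryo lives. Na,K-ATPase, built of a catalytic alpha and a glycoprotein beta subunit, keeps the sodium gradient that drives secretion and absorption, chloride and potassium channels set the membrane potential and the direction of flow, and aquaporins let water follow the salt. Vacuolar proton pumps acidify endosomes and, in some epithelia, the lumen, and voltage-gated and TRP channels let calcium, magnesium or sodium into the cell. P4 from the corpus luteum is known to change the secretory state of the endometrium.

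Between 21592867 and 32813237 reads were counted on genes per library (median 28126022.5). Levels are given as CPM, a gene's count relative to the library size after TMM normalisation, and log2 fold changes with their standard errors (SE) are edgeR estimates. CPM are not divided by gene length, so a level is compared between groups and not between genes. Differences were called at a Benjamini-Hochberg adjusted P (BH P) of 0.05 or less over all genes tested. A biopsy is bulk tissue, in which fewer cells of a type and less RNA per cell cannot be told apart. The study biopsied its cows at both weeks and fitted cow as a random effect. Nothing in the labels links a library to a cow, so libraries were taken here as independent. The p-values measure the spread between libraries, and those of the week changes make no allowance for cows sampled at both weeks.

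A set of 5 libraries stood apart from their labelled group. On the first principal component of 2000 variable genes, none of them among the 63, which held 37% of the variance, the NoCycW5 libraries of week 5 lay between -57.8 and -27.1. Libraries 57 (CycW5, week 5; -38.5), 87 and 89 (CycW5, week 9; -57.9 and -39.7) and 76 and 91 (NoCycW5, week 9; -48.0 and -48.2) lay at or below the highest of these, and every other CycW5 or week 9 library lay at -10.7 or above. The 4 CycNoP4 libraries of week 5 also lay among the NoCycW5 libraries of week 5, from -42.2 to -27.5. OXTR, the oxytocin receptor, had its highest level of the group in library 57 (151 CPM; median of CycW5 at week 5, 43.1 CPM), in library 87 (178 CPM; median of CycW5 at week 9, 6.71 CPM) and in library 91 (162 CPM; median of NoCycW5 at week 9, 9.08 CPM). Counts of genes without these 5 libraries are given beside the counts with them. Because the 5 were singled out by their place on this axis, leaving them out sets the groups further apart by construction, and more of all genes were then called in the larger contrasts.

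**Figure D1:**
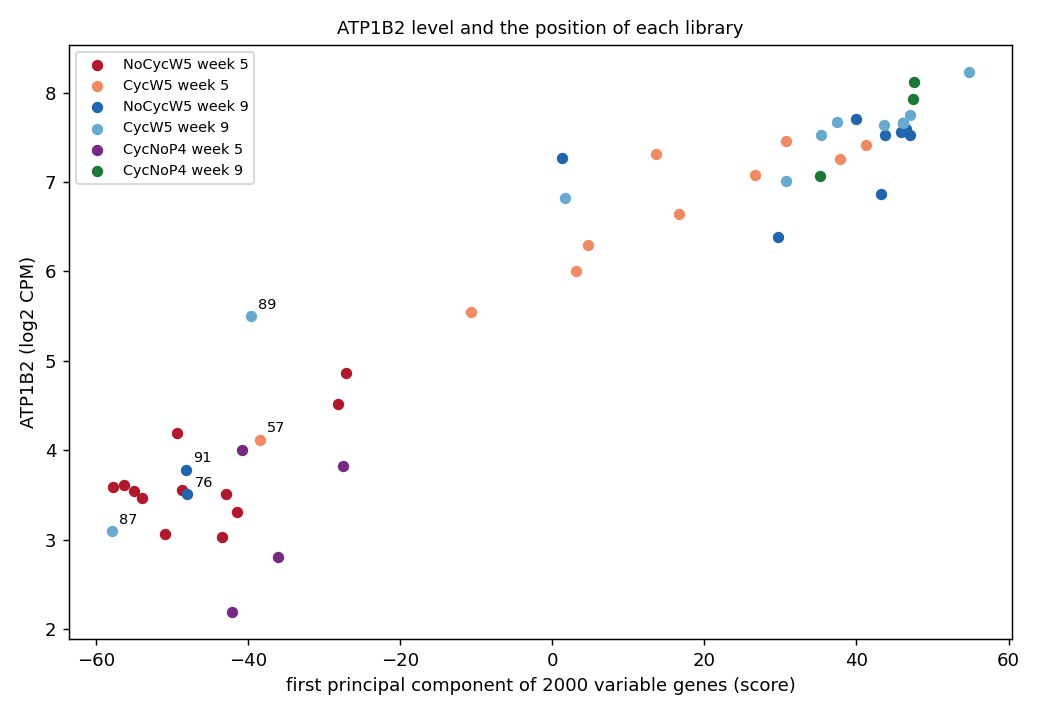
Abundance of ATP1B2, a Na,K-ATPase beta subunit, in log2 CPM (vertical axis) against the score of each of the 50 libraries on the first principal component of 2000 other genes (horizontal axis), coloured by group. Libraries 57, 76, 87, 89 and 91, marked by number, lie apart from the rest of their groups on the horizontal axis. There they lie at or below the highest NoCycW5 library of week 5. On the vertical axis library 89 (45.1 CPM) lies above the NoCycW5 libraries of week 5 (8.08 to 29 CPM).

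In the libraries of the study's own contrasts, 57 of the 63 genes passed the filter on low counts. At week 5, 35 of 57 were called between CycW5 and NoCycW5 cows, 28 higher and 7 lower in CycW5 (background over all genes tested, 26.6%, with 15.2% higher and 11.4% lower). From week 5 to week 9, 40 of 57 were called in NoCycW5 cows, 30 higher and 10 lower at week 9 (background, 35.7%, with 19.4% higher and 16.3% lower). Both counts describe genes that were mostly chosen from these contrasts, and both contrasts use the NoCycW5 libraries of week 5. Without the 5 libraries the counts were 38 and 42, while the calls over all genes went from 4119 to 6010 and from 5533 to 7531. In CycW5 cows 1 of 57, CHRNA1, was called from week 5 to week 9, lower at week 9 (background, 0.0452%, with 0.0129% higher and 0.0323% lower), and this call was lost in 11 of the 20 fits that left out 1 library. At week 9 none of the 57 was called between CycW5 and NoCycW5 cows (background, 0.00646%). At week 9, 2 genes had an unadjusted p under 0.05 in edgeR and 3 in DESeq2, and 0 were called by either tool. In the CycW5 week change the number with an unadjusted p under 0.05 was 8. The difference between the 2 week changes was called for 16 of 57 genes, 15 of them positive for NoCycW5 minus CycW5 and 1 negative (background, 7.82%, with 4.99% positive and 2.83% negative), and for 25 without the 5 libraries, where the calls over all genes went from 1210 to 2466.

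Few measurements were independent of the choice of genes. Only 2 genes tested at week 5 and 1, CHRNA1, in the NoCycW5 week change came from lists that shared no group with the comparison, and none did for the difference between week changes. Of 25 such genes 0 were called in the CycW5 week change and of 23 such genes 0 at week 9, 2 comparisons in which few of all genes were called. In CycNoP4 cows, whose libraries entered none of the lists, 60 genes could be tested and 14 were called from week 5 to week 9, 11 higher and 3 lower at week 9, which is 23.3% (background, 19.6%, with 9.74% higher and 9.85% lower). At week 5, 13 of 60 were called between CycNoP4 and CycW5 cows, 2 higher and 11 lower in CycNoP4 (background, 17.9%, with 9.62% higher and 8.29% lower). The split was 4 higher and 3 lower with limma-voom and 5 and 4 with library quality weights. Between CycNoP4 and NoCycW5 cows 11 of 60 were called, 10 higher and 1 lower in CycNoP4 (background, 16.4%, with 9.92% higher and 6.52% lower). Only 28 and 3 of the genes tested in these 2 contrasts had lists that shared no group with them, and 6 (all lower in CycNoP4) and 0 of those were called. Without the 5 libraries the 3 CycNoP4 counts were 16, 18 and 17, and the calls over all genes went from 3158 to 4382, from 2887 to 4106 and from 2650 to 3826. All 3 CycNoP4 comparisons use the 4 CycNoP4 libraries of week 5 and rest on few libraries, and the calls over all genes moved with those of the 63. Without library 51, 56 or 64 the contrast with NoCycW5 had 0, 4 or 19 calls among the 63 and 153, 853 or 4775 over all genes. Without library 51, 56 or 58 the contrast with CycW5 had 8, 6 or 7 (1111, 1571 or 1812 over all genes), and without library 79 or 58 the week change had 8 or 9 (1295 or 2335).

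**Figure D2:**
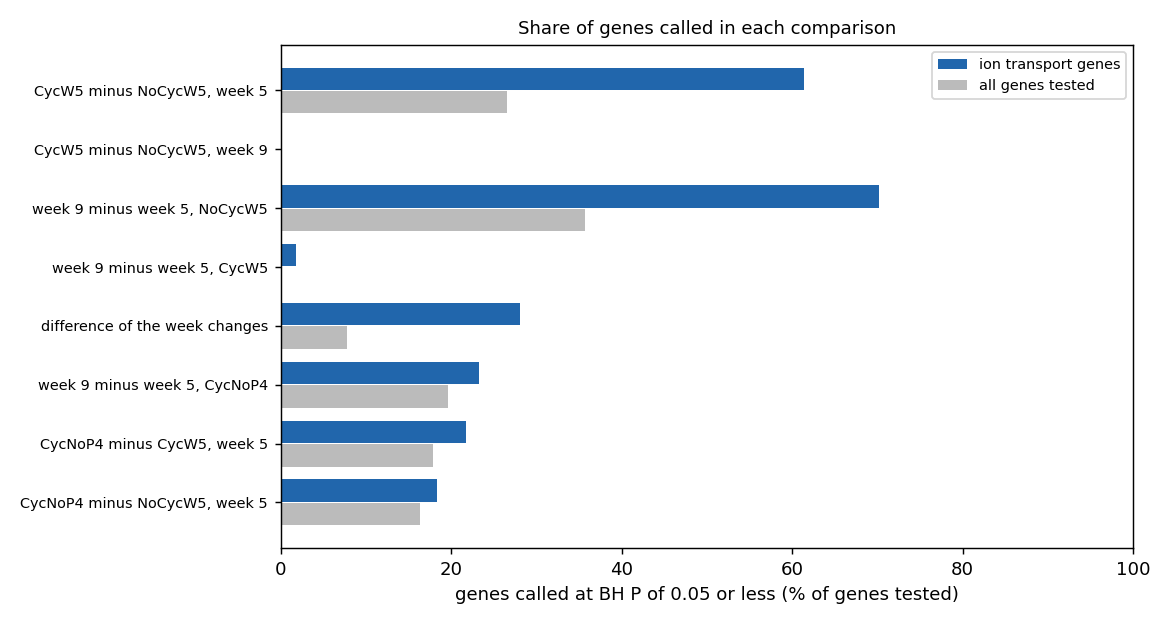
Share of genes called at a BH P of 0.05 or less (horizontal axis, % of genes tested) in 8 comparisons, for the ion transport genes (blue) and for all genes tested (grey). The share was 61.4% against 26.6% for cyclicity at week 5, a contrast that had chosen many of the genes, and 23.3% against 19.6% for the week change in CycNoP4 cows, which had chosen none.

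**Figure D3:**
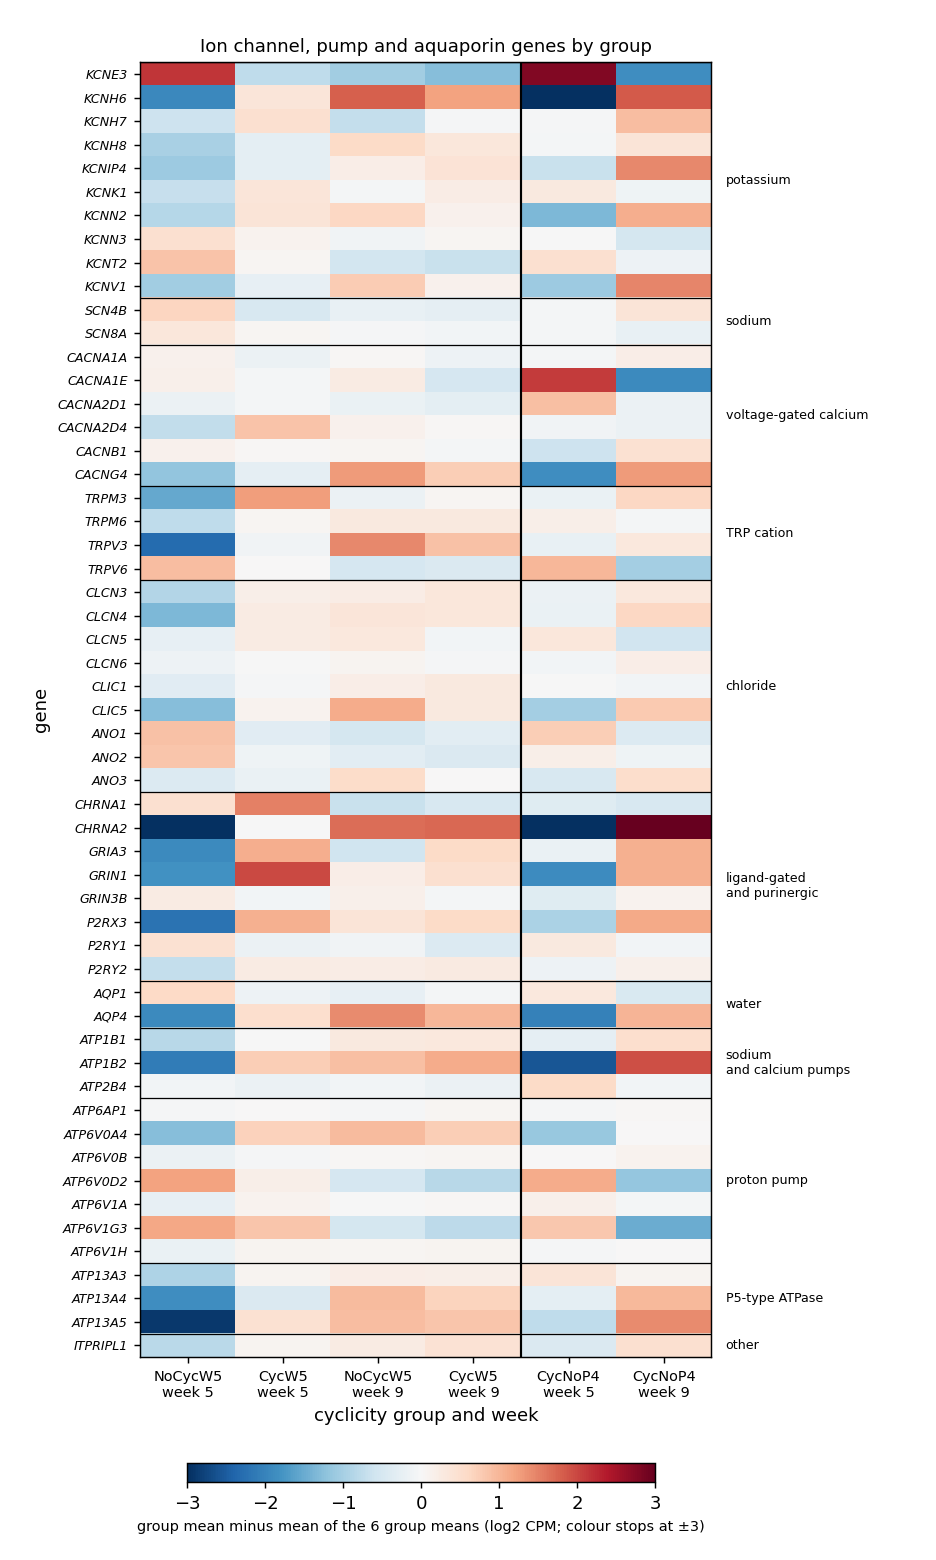
Mean log2 CPM of 55 tested genes in each cyclicity group and week, as the difference from the mean of the 6 group means (colour, from -3 to 3), with genes ordered by ion class. The NoCycW5 and CycNoP4 columns of week 5 hold the low values of ATP1B2, AQP4, CHRNA2, GRIN1 and KCNH6.

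Among the pumps, the Na,K-ATPase beta subunit genes ATP1B1 and ATP1B2 were higher in CycW5 than in NoCycW5 cows at week 5 and higher at week 9 than at week 5 in NoCycW5 cows. ATP1B2 encodes a beta subunit best known from glia. Its level in NoCycW5 cows at week 5 was 8.08 to 29 CPM (median 11.7), against 17.3 to 175 CPM (median 117) in CycW5 cows. At week 9 it was 11.3 to 208 CPM (median 184) in NoCycW5 and 8.50 to 301 CPM (median 192) in CycW5 cows. The lowest library of each of these 3 groups was one of the 5 that stood apart (57, 76 and 87). The log2 fold change was 3.0 ± 0.43 (SE) for cyclicity at week 5 and 3.34 ± 0.43 for the NoCycW5 week change, against 0.55 ± 0.43 for the CycW5 week change (BH P = 0.58, edgeR), a contrast that did not choose the gene.

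In CycNoP4 cows ATP1B2 was at 14.1, 6.94, 4.49 and 15.9 CPM in the 4 libraries of week 5 and at 279, 135 and 243 CPM in the 3 of week 9. The ranges did not overlap, and the change was 4.40 ± 0.79 on the log2 scale (BH P = 0.00094, edgeR), called in each fit that left out 1 library. Against CycW5 cows at week 5 the CycNoP4 libraries were lower by -3.41 ± 0.69 (BH P = 0.0012), again with no overlap. The same 4 libraries were within the range of the NoCycW5 libraries or below it, with a log2 difference of -0.42 ± 0.57. Groups failed to overlap in the CycNoP4 week change for 21 of the 63 genes and for 26.2% of all genes tested, since the comparison has 4 against 3 libraries, and in the CycNoP4 against CycW5 comparison for ATP1B2 and CHRNA2 (2.65% of all genes tested). For none of the 63 did they fail to overlap between CycW5 and NoCycW5 (0.316%) or CycNoP4 and NoCycW5 cows (0.868%) at week 5.

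ATP1B1, the common beta subunit, had medians of 188 and 357 CPM at week 5 and 465 and 467 CPM at week 9 in NoCycW5 and CycW5 cows. ATP2B4, a plasma membrane calcium pump from a microbiota list, had medians of 21.1 to 22.9 CPM in the 4 groups of CycW5 and NoCycW5 cows and passed in none of the contrasts.

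The 2 aquaporin genes differed in opposite directions. AQP4, a water-selective channel of basolateral membranes in several epithelia and of astrocyte endfeet, was at 3.96 to 33.9 CPM (median 9.47) in NoCycW5 and 8.59 to 114 CPM (median 65.2) in CycW5 cows at week 5. At week 9 it was at 7.79 to 331 CPM (median 157) in NoCycW5 and 5.17 to 220 CPM (median 90.6) in CycW5 cows. Libraries 57, 76 and 87 were again the lowest of the last 3 groups. The NoCycW5 week change was 3.62 ± 0.49 and the CycW5 week change 0.69 ± 0.48 (BH P = 0.52, edgeR). CycNoP4 cows had 31.3, 13.1, 4.64 and 3.68 CPM at week 5 and 168, 53.3 and 48.4 CPM at week 9, a change of 2.77 ± 0.86 (BH P = 0.022) with no overlap, lost without library 56, 58 or 79. Against CycW5 cows at week 5 they were lower by -2.29 ± 0.75 (BH P = 0.029), lost without library 56, 58 or 64.

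AQP1, the water channel of endothelium and of many epithelia, was highest in NoCycW5 cows at week 5, at 161 to 704 CPM (median 422). CycW5 cows had 109 to 371 CPM (median 243) at week 5, and the week 9 medians were 236 CPM in NoCycW5 and 231 CPM in CycW5 cows. Its log2 difference was -0.76 ± 0.25 at week 5 and -0.90 ± 0.24 in the NoCycW5 week change. The summed level of VWF and CDH5, the 2 endothelial markers with an identifier out of 6 listed, moved the same way, with medians of 387 CPM in NoCycW5 and 254 CPM in CycW5 cows at week 5 and 275 and 267 CPM at week 9 (group ranges 217 to 590, 149 to 312, 103 to 374 and 172 to 436 CPM). Both markers had an identifier because the study had listed them, among others for cyclicity at week 5, so their difference there is a description. The part of endothelial RNA in the AQP1 difference was not tested.

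Most of the epithelial markers moved with the genes that were higher in CycW5 cows at week 5. EPCAM, KRT8, CLDN4 and MUC1, the 4 of 8 listed that have an identifier, summed to 307 to 532 CPM (median 411) in NoCycW5 and 355 to 1230 CPM (median 591) in CycW5 cows at week 5, and EPCAM, KRT8 and CLDN4 were called higher. MUC1 lay the other way, with medians of 76.5 CPM in NoCycW5 and 51.3 CPM in CycW5 cows, and was not called. At week 9 the medians were 959 CPM (404 to 1280) in NoCycW5 and 884 CPM (315 to 1050) in CycW5 cows. In CycNoP4 cows they summed to 503 to 961 CPM (median 665) at week 5 and 544 to 1060 CPM (median 649) at week 9, with 0 of 4 called for the week change. The identifier of KRT8 came from the study's list for cyclicity at week 5 and that of CLDN4 from the NoCycW5 week list. EPCAM came from the week list of CycW5 cows and MUC1 from a microbiota list. These lists used groups compared here, so markers that differed were likelier to have an identifier. The part of epithelial RNA in the differences of the ion transport genes was not tested. PDGFRA, the 1 stromal marker of 8 with an identifier, was called in none of the 8 comparisons. No identifier was at hand for markers of ciliated cells, smooth muscle, leukocytes or erythrocytes.

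Of the 9 chloride genes 6 were called at week 5 (background, 26.6%) and 7 in the NoCycW5 week change (background, 35.7%), contrasts whose lists had named 7 of them. CLCN3 and CLCN4, the endosomal chloride-proton exchangers, were higher in CycW5 than in NoCycW5 cows at week 5. In NoCycW5 cows both were higher at week 9 than at week 5. CLCN3 was at 18.9 to 32.9 CPM (median 22.6) in NoCycW5 and 25.7 to 65.6 CPM (median 55.5) in CycW5 cows at week 5, and had medians of 54.3 and 54.4 CPM at week 9. CLCN4 had medians of 4.14 and 15 CPM at week 5 and 16.5 and 14.1 CPM at week 9. For CLCN4 the NoCycW5 week change was 1.78 ± 0.27 and the CycW5 week change 0.07 ± 0.28 (BH P = 0.93, edgeR), the second in libraries that did not choose it. In CycNoP4 cows CLCN3 was at 39.7, 44.8, 34.3 and 32.3 CPM at week 5, between the medians of the other groups, and at 65.1, 42.9 and 53.6 CPM at week 9 (0.51 ± 0.26, BH P = 0.15).

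CLIC5, a chloride intracellular channel protein that is also tied to the actin of microvilli, was at 1.33 to 6.82 CPM (median 3.09) in NoCycW5 and 4.08 to 21.4 CPM (median 6.78) in CycW5 cows at week 5. At week 9 it reached 2.79 to 44.0 CPM (median 17.1) in NoCycW5 and 3.05 to 18 CPM (median 9.10) in CycW5 cows, and the difference between the week changes was 2.40 ± 0.47. CycNoP4 cows had 4.32, 3.54, 2.49 and 3.14 CPM at week 5 and 26.1, 8.31 and 7.47 CPM at week 9. All 3 week 9 libraries were above all 4 of week 5 (2.05 ± 0.59, BH P = 0.015, edgeR), and the call was lost without library 79, the highest. CLIC1, a relative, had a median of 155 CPM in NoCycW5 cows at week 5, against 179, 211 and 222 CPM in CycW5 cows at week 5 and in NoCycW5 and CycW5 cows at week 9.

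ANO1, the calcium-activated chloride channel of secretory epithelia and smooth muscle, was lower in CycW5 than in NoCycW5 cows at week 5. In NoCycW5 cows it was also lower at week 9 than at week 5. It was at 15.3 to 45.2 CPM (median 24.4) in NoCycW5 and 6.92 to 20.7 CPM (median 10.2) in CycW5 cows at week 5. At week 9 it was at 6.74 to 15.2 CPM (median 9.07) in NoCycW5 cows, all below the lowest library of week 5, and 5.86 to 23.8 CPM (median 9.84) in CycW5 cows. Libraries 57 and 87 had the highest level of their groups. ANO1 and KCNN2 were the only 2 of the 63 genes whose ranges did not overlap in the NoCycW5 week change (background, 0.775%). CycNoP4 cows had 17.7, 28.6, 39.9 and 13.6 CPM at week 5, higher than CycW5 cows by 1.10 ± 0.33 (down to 0.78 with 1 library left out, and no longer called without library 56 or 58), and 4.71, 23.1 and 10.1 CPM at week 9 (-0.98 ± 0.45, BH P = 0.11, edgeR). ANO2, a low-abundance relative, had medians of 0.504, 0.212, 0.188 and 0.158 CPM in NoCycW5 and CycW5 cows at week 5 and at week 9, while ANO3, a scramblase-like member of the family, was higher at week 9 in NoCycW5 cows (medians 4.27 and 9.07 CPM). CLCN5 and CLCN6, taken from microbiota lists, were called in none of the 8 comparisons.

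Genes of ligand-gated and purinergic receptors had the largest median difference of the classes at week 5, 3.42 on the log2 scale over 7 tested genes, beside a median of -0.02 over all genes. All 7 came from lists that had used libraries of this contrast. The median therefore describes chosen genes and does not rank the classes as such. GRIN1 encodes the obligatory subunit of NMDA glutamate receptors. It was at 1.05 to 2.42 CPM (median 2.04) in NoCycW5 and 2.40 to 80.8 CPM (median 36.8) in CycW5 cows at week 5, and only library 57 of the second group lay within the range of the first. At week 9 it was lower than in the CycW5 cows of week 5, at 1.66 to 32.4 CPM (median 9.19) in NoCycW5 and 2.68 to 64.6 CPM (median 8.09) in CycW5 cows. CycNoP4 cows had 1.14, 1.32, 1.81 and 3.38 CPM at week 5 and 11.2, 11 and 23 CPM at week 9, an increase of 2.97 ± 0.83 (BH P = 0.012, edgeR), lost without library 94. GRIA3, an AMPA receptor subunit, followed a like order, with medians of 0.617 and 8.24 CPM at week 5 and 1.46 and 3.26 CPM at week 9. Its CycNoP4 values of 2.31, 1.65, 4.98 and 1.56 CPM at week 5 and 2.66, 9.16 and 7.76 CPM at week 9 overlapped (1.31 ± 0.90, BH P = 0.29).

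S100B, the 1 listed nerve and glia marker out of 6 that has an identifier, had medians of 27.8 CPM in NoCycW5 and 169 CPM in CycW5 cows at week 5, 57.7 and 64.3 CPM at week 9, and 44.0 and 78.9 CPM in CycNoP4 cows at weeks 5 and 9, an order close to that of GRIN1. The identifier came from the study's list for cyclicity at week 5, so S100B had itself been chosen for a difference at week 5. The part of S100B in the differences of GRIN1 and GRIA3 was not tested.

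P2RX3, an ATP-gated cation channel of sensory nerve endings, was at 0.415 to 2.22 CPM (median 1.05) in NoCycW5 and 1.05 to 30.7 CPM (median 11.4) in CycW5 cows at week 5, with medians of 9.25 and 8.32 CPM at week 9. The NoCycW5 week change was 2.99 ± 0.43 and the difference between week changes 3.63 ± 0.60. In CycNoP4 cows it was at 3.30, 2.81, 3.02 and 1.45 CPM at week 5 and 17.8, 11.1 and 6.76 CPM at week 9 (2.17 ± 0.71, BH P = 0.028, edgeR), a call that held in 1 of the 7 fits that left out a library. P2RY2, the G protein-coupled receptor for ATP and UTP that drives chloride secretion in epithelia, had medians of 9.19 and 16.2 CPM at week 5 and 16.9 and 14.8 CPM at week 9. P2RY1, the ADP receptor, came from a microbiota list and was called in none of the comparisons.

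CHRNA2, a neuronal nicotinic receptor subunit, was at 0 reads in 8 of 12 NoCycW5 libraries of week 5 and reached 1.88 CPM in the highest. CycW5 cows had 0.0329 to 23.6 CPM (median 0.994) at week 5, and the week 9 ranges were 0.0362 to 27.8 CPM (median 9.85) in NoCycW5 and 0 to 55.5 CPM (median 8.31) in CycW5 cows. In CycNoP4 cows all 4 libraries of week 5 had 0 reads and the 3 of week 9 had 26.6, 11.3 and 34.8 CPM. Against a floor of 3 reads over the 4 libraries (0.0249 CPM) the level pooled over the 3 libraries of week 9 was at least 1032-fold higher. The week change was called (BH P = 0.0078, edgeR). The level pooled over the CycW5 libraries of week 5 was at least 226-fold above the same floor (BH P = 0.015, edgeR), a call lost without library 51. Single CycW5 libraries held from 1 to 668 reads, so the pooled level does not hold for each of them. CHRNA1, the muscle-type subunit, behaved differently: it was at 0.0341 to 11 CPM (median 0.648) in CycW5 cows at week 5 and at 0.361, 0.129 and 0.159 CPM in the medians of NoCycW5 cows at week 5, NoCycW5 cows at week 9 and CycW5 cows at week 9. Libraries 59 and 52 (11 and 8.59 CPM) carried the highest values. The CycW5 week change of -3.70 ± 0.72 had chosen it, and the NoCycW5 week change of -1.77 ± 0.68, which had not, was called with them all (BH P = 0.038, edgeR) and missed the threshold without the 5 libraries (BH P = 0.056) and in 10 of the 23 fits that left out 1 library.

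**Figure D4:**
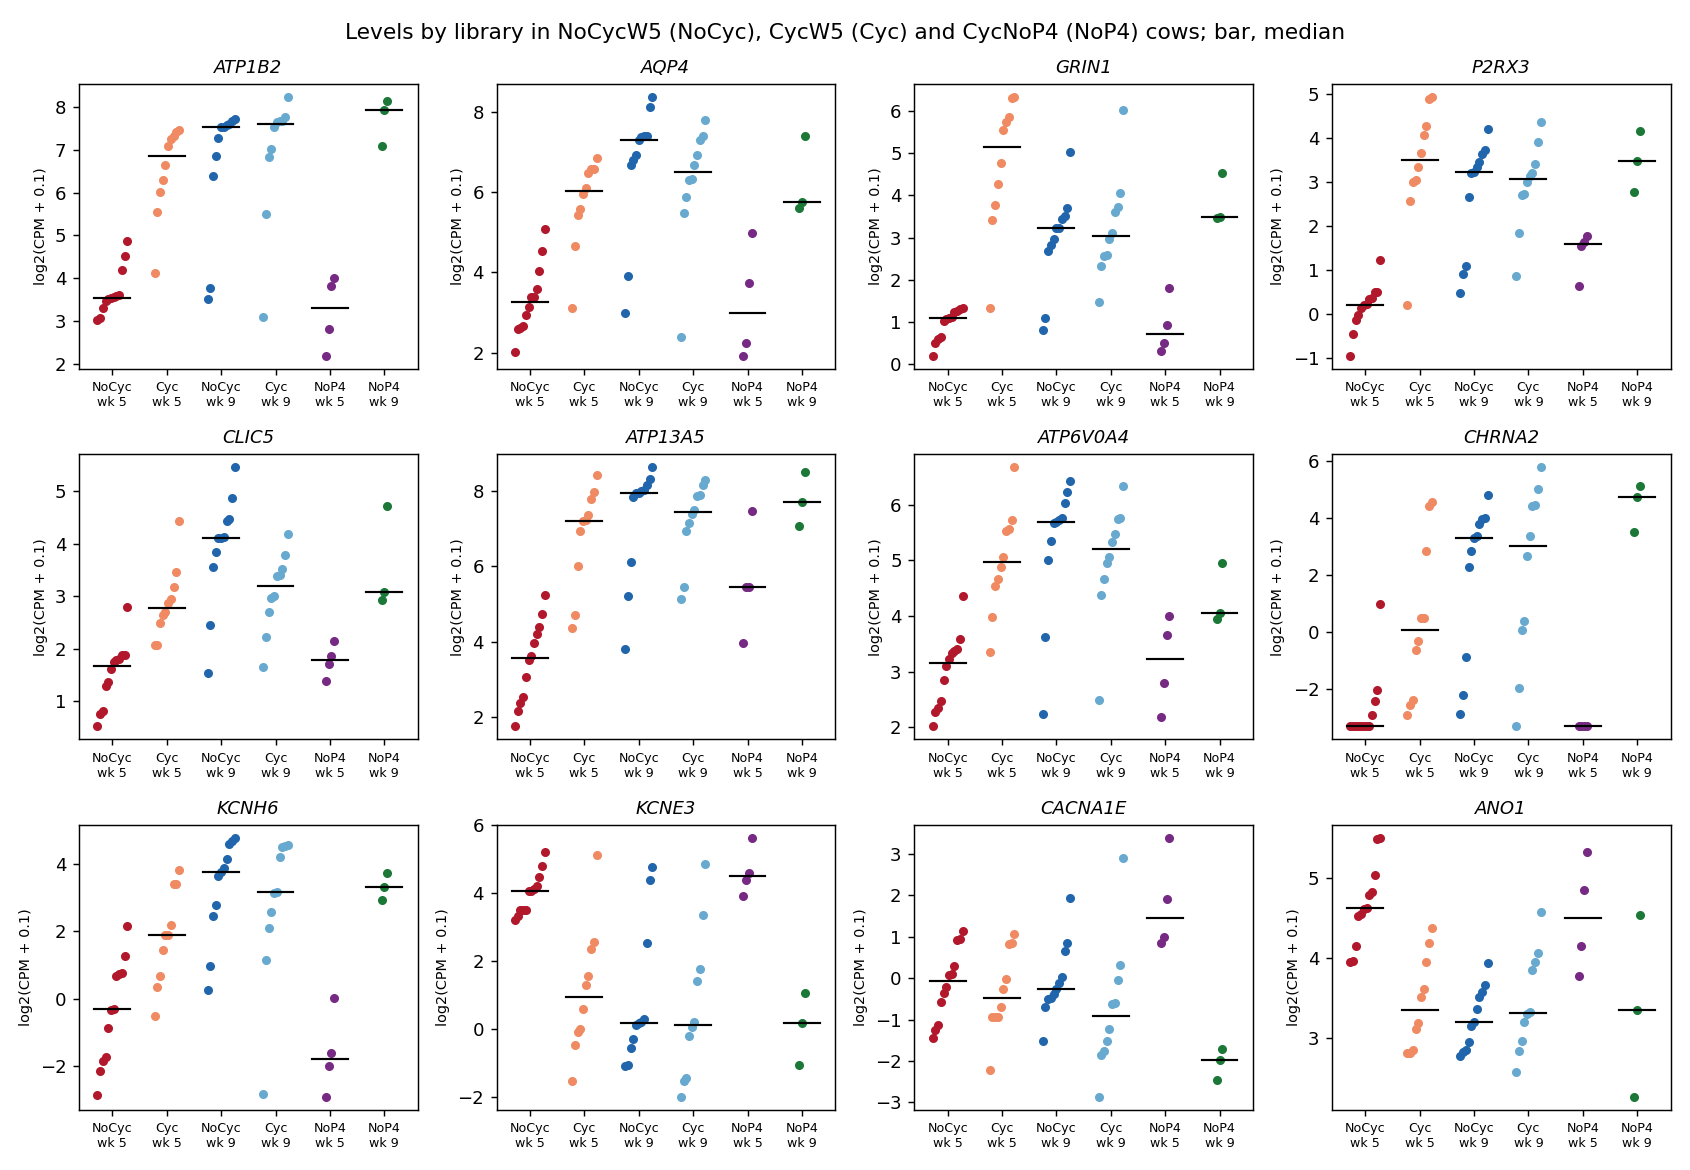
Levels of 12 genes in every library, as log2(CPM + 0.1) (vertical axes), by cyclicity group and week, with 1 point a library and the median as a bar. ATP1B2, AQP4, GRIN1, P2RX3, CLIC5, ATP13A5, ATP6V0A4, CHRNA2 and KCNH6 had their lowest medians in NoCycW5 or CycNoP4 cows at week 5, and KCNE3 and ANO1 had their highest there.

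Potassium channel genes were called in both directions. KCNH6, a voltage-gated pore subunit of the ERG group, was at 0.0388 to 4.36 CPM (median 0.702) in NoCycW5 and 0.593 to 13.8 CPM (median 3.60) in CycW5 cows at week 5, and had medians of 13.4 and 8.79 CPM at week 9. The NoCycW5 week change was 3.57 ± 0.66 and the CycW5 week change 1.16 ± 0.65 (BH P = 0.42, edgeR). CycNoP4 cows had 0.152, 0.0330, 0.226 and 0.913 CPM at week 5 and 13.1, 7.46 and 9.87 CPM at week 9, with no overlap (4.91 ± 1.24, BH P = 0.0078), and were lower than CycW5 cows at week 5 by -3.95 ± 1.11 (BH P = 0.011), a call lost without library 51 or 56. KCNN2, a small-conductance calcium-activated channel, was at 3.77 to 8.29 CPM in NoCycW5 cows at week 5 (median 5.62) and 8.36 to 26.3 CPM at week 9 (median 17.5), without overlap. CycW5 cows had medians of 15.5 and 16.0 CPM at weeks 5 and 9, and libraries 89 and 87 were lowest at 1.67 and 2.52 CPM. In CycNoP4 cows KCNN2 rose from 1.36, 4.69, 3.54 and 12.5 CPM to 19.8, 17.8 and 32.7 CPM (2.08 ± 0.53, BH P = 0.0078).

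KCNE3, an auxiliary subunit that holds KCNQ1 channels open in secretory epithelium, had the reverse order. It was at 9.07 to 36.6 CPM (median 16.6) in NoCycW5 cows at week 5, against medians of 1.87 CPM in CycW5 cows at week 5 and 1.03 and 0.991 CPM in NoCycW5 and CycW5 cows at week 9. The highest libraries of these 3 groups were 57 (34.7 CPM), 91 (27.3 CPM) and 87 (28.8 CPM), each within the range of the NoCycW5 cows at week 5. With these libraries neither the difference at week 5 (-1.67 ± 0.84) nor the NoCycW5 week change (-1.66 ± 0.81) reached the threshold. Without the 5 libraries the log2 differences were -2.97 and -3.72 and both were called. Leaving those libraries out sets these groups further apart by construction, so these calls are a description and no support. CycNoP4 cows had 49.6, 20.8, 24.2 and 14.9 CPM at week 5 and 1.02, 1.98 and 0.374 CPM at week 9 (-4.61 ± 1.69, BH P = 0.047, edgeR), and the call held in 1 of the 7 fits that left out a library.

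KCNK1, a background channel, was higher in CycW5 than in NoCycW5 cows at week 5 (medians 15.6 and 6.87 CPM). It reached 31 CPM in CycNoP4 library 51, against 14.1, 7.92 and 10.1 CPM in the other CycNoP4 libraries of week 5. Its call against NoCycW5 cows, whose libraries its list had used, was lost without library 51. KCNH8 had medians of 0.864 and 1.22 CPM at week 5 and 2.41 and 2.48 CPM at week 9, and KCNN3 had medians of 3.06 and 2.12 CPM in NoCycW5 cows at weeks 5 and 9. KCNT2, a sodium-activated channel from a microbiota list, was at 0.116 to 2.63 CPM (median 0.385) in NoCycW5 cows at week 5. Its median was 0.202 CPM in CycW5 cows at week 5 and 0.149 CPM in NoCycW5 cows at week 9, log2 differences of -1.29 ± 0.48 and -2.20 ± 0.49 in libraries that its list had used, and library 55 held the highest value. KCNV1, a silent modifier subunit, had 0 reads in all 4 CycNoP4 libraries of week 5 and 0.0682, 0.767 and 0.529 CPM at week 9. Pooled over the libraries of week 9 this was at least 18-fold above the floor (BH P = 0.0052, edgeR), with 2 to 19 reads in a library. KCNIP4 and KCNH7 reached at most 3.22 and 2.35 CPM in any library.

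**Figure D5:**
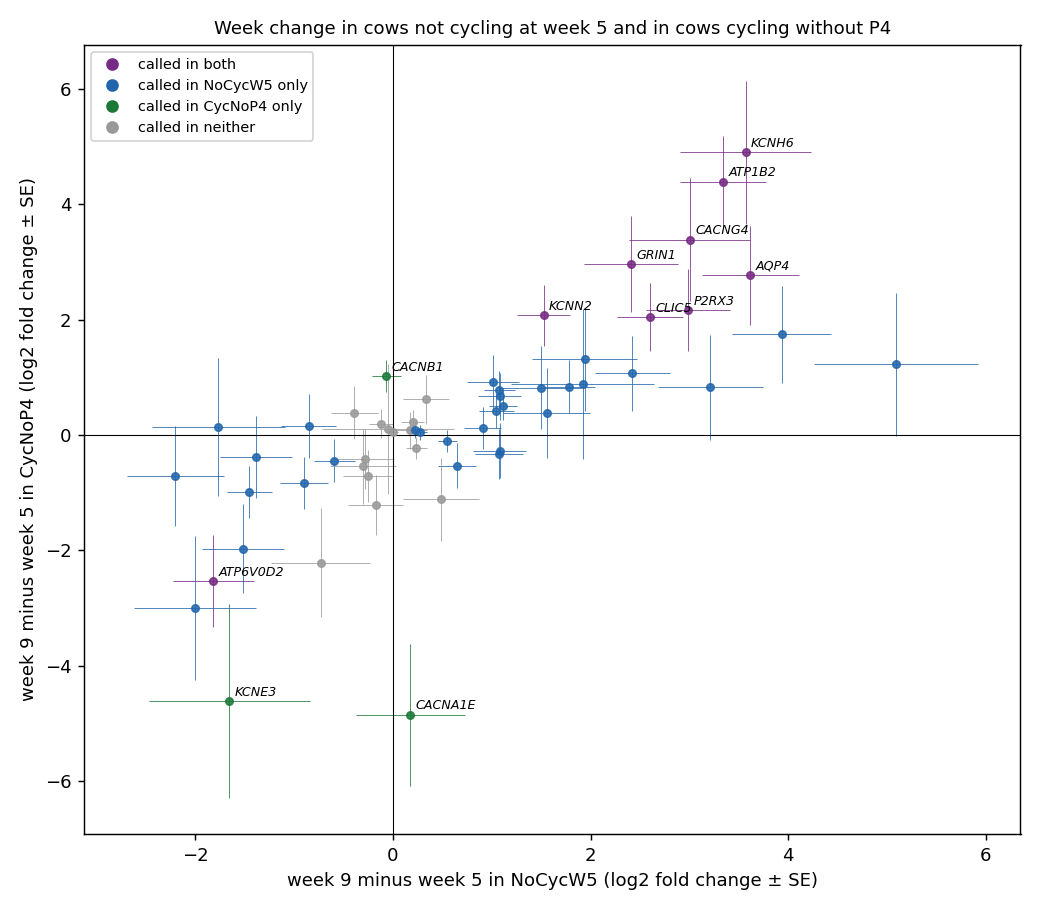
Log2 fold change from week 5 to week 9 in NoCycW5 cows (horizontal axis) and in CycNoP4 cows (vertical axis), 2 comparisons with no library in common, with bars of 1 SE. Each point is a gene tested in both, without CHRNA2 and KCNV1, which had 0 reads in CycNoP4 cows at week 5, and the named points were called in CycNoP4 cows.

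The NoCycW5 and CycNoP4 week changes share no library. Of the 40 genes called in NoCycW5 cows, 34 had the same sign in CycNoP4 cows, and 10 were called there, all 10 in the same direction: KCNH6, KCNN2, CACNG4, CLIC5, CHRNA2, GRIN1, P2RX3, AQP4 and ATP1B2 higher and ATP6V0D2 lower. The signs are no independent support for the genes, whose list was drawn in part from the first of these contrasts. The matching counts over all genes were not taken, so whether this agreement is particular to the ion transport genes was not tested. Of the other 4 genes called in CycNoP4 cows, KCNE3, CACNA1E and CACNB1 were not called in NoCycW5 cows and KCNV1 was not tested there. TRPV3 and ATP13A4, with NoCycW5 week changes of 5.09 ± 0.83 and 3.21 ± 0.53, had CycNoP4 week changes of 1.23 ± 1.24 (BH P = 0.50, edgeR) and 0.83 ± 0.91 (BH P = 0.54), and whether the 2 kinds of cow differed was not tested. OXTR fell by 5.36 on the log2 scale in CycNoP4 cows, from a median of 209 CPM to 3.41 CPM. ESR1, the estrogen receptor alpha, had medians of 147 and 72.4 CPM in CycNoP4 cows and 128 and 66.5 CPM in NoCycW5 cows at weeks 5 and 9. The part of these hormone-related changes in the ion transport genes was not tested.

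Of the voltage-gated calcium channel genes 0 of 5 were called for cyclicity at week 5 (background, 26.6%), 3 of 6 in the CycNoP4 week change (background, 19.6%) and 3 of 6 between CycNoP4 and NoCycW5 cows (background, 16.4%). CACNA1E, the R-type pore subunit, was at 0.265 to 2.09 CPM (median 0.858) in NoCycW5 and 0.116 to 2.0 CPM (median 0.621) in CycW5 cows at week 5. In CycNoP4 cows it was at 3.68, 10.4, 1.89 and 1.69 CPM at week 5 and 0.205, 0.0807 and 0.156 CPM at week 9. The week change in CycNoP4 cows shares no library with its microbiota lists, and there it fell by 4.85 on the log2 scale (SE 1.23, BH P = 0.0078, edgeR), called in each fit that left out 1 library. The week 5 libraries of the other groups had entered those lists, and the differences from CycW5 and NoCycW5 cows, 2.31 ± 0.70 and 2.17 ± 0.67, are a description. Library 56 held the highest value, and with 1 library left out these differences went down to 1.44 and 1.31.

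CACNB1, the beta subunit of muscle-type channels, showed the reverse. It was at 14.4 to 26.3 CPM in NoCycW5 and 13.0 to 22.6 CPM in CycW5 cows at week 5, against 9.48, 8.33, 12.5 and 17.9 CPM in CycNoP4 cows, which had 21.3, 27.2 and 25 CPM at week 9 (1.02 ± 0.28, BH P = 0.011, edgeR). The week 5 differences were -0.62 ± 0.22 against CycW5 and -0.72 ± 0.22 against NoCycW5 cows, again in libraries that its list had used. With 1 library left out, the call against CycW5 cows held in 5 of 14 fits. The call against NoCycW5 cows was lost without library 51 or 56. CACNA2D1, an alpha2delta subunit, was at 15.7, 36.9, 29.6 and 12.7 CPM in CycNoP4 cows at week 5, against 4.78 to 25.3 CPM (median 11.3) in NoCycW5 cows (1.0 ± 0.36 against NoCycW5). CACNG4, a gamma subunit that also traffics AMPA receptors, had medians of 0.805 and 0.971 CPM at week 5 and 7.85 and 4.94 CPM at week 9. In CycNoP4 cows it rose from 0.417, 0.396, 0.226 and 0.439 CPM to 5.39, 2.26 and 4.14 CPM (3.39 ± 1.07, BH P = 0.023), and the call held in 2 of 7 fits that left out a library. CACNA1A, the P/Q-type pore subunit, was at 22.3 to 65.3 CPM over all libraries of week 5 and was called in none of the comparisons.

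TRPM3, TRPM6 and TRPV3 were higher in CycW5 cows at week 5. TRPM3, a cation channel gated by heat and steroids, was at 0.969 to 6.32 CPM (median 2.68) in NoCycW5 and 3.16 to 65.1 CPM (median 19.9) in CycW5 cows at week 5, with lower medians of 6.40 and 7.23 CPM at week 9. Library 72 stood out at week 9 with 38.3 CPM. CycNoP4 cows had 4.66, 10.8, 9.31 and 3.99 CPM at week 5 and 6.99, 11.7 and 19.6 CPM at week 9 (0.82 ± 0.71, BH P = 0.42, edgeR). TRPM6, the magnesium channel kinase of absorbing epithelia, had medians of 4.32 and 6.76 CPM at week 5 and 7.14 and 7.46 CPM at week 9. Its call at week 5 held in 17 of the 22 fits that left out 1 library. TRPV3, known from keratinocytes, was at 0 reads in 4 NoCycW5 libraries of week 5 and at most at 0.365 CPM, and had medians of 0.619 CPM in CycW5 cows at week 5 and 3.04 and 1.64 CPM at week 9. TRPV6, the calcium entry channel of intestine and uterus, was at 3.16 to 15.6 CPM (median 11.1) in NoCycW5 cows at week 5 and had medians of 4.64, 2.41 and 2.70 CPM in CycW5 cows at week 5 and in NoCycW5 and CycW5 cows at week 9. Libraries 57, 76, 91 and 87 held 15.6 to 18.6 CPM, and library 83 held 21.1 CPM. Its NoCycW5 week change of -0.73 ± 0.50 was -1.48 without the 5 libraries, where it was called. That removal sets the weeks further apart by construction, so the call is a description. In CycNoP4 cows TRPV6 was at 7.35, 13.6, 5.01 and 19 CPM at week 5 and 2.35, 1.98 and 2.93 CPM at week 9 (-2.21 ± 0.95, BH P = 0.088, edgeR). Without the 5 libraries the BH P was 0.039 (edgeR). None of the 5 is a CycNoP4 library, so the values compared were the same, and more of all genes were then called too.

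Sodium channel genes were low. Where called, they were lower in CycW5 than in NoCycW5 cows at week 5 or lower at week 9 in NoCycW5 cows. SCN4B, a beta subunit, was at 2.05 to 8.92 CPM (median 4.92) in NoCycW5 and 0.848 to 5.79 CPM (median 1.94) in CycW5 cows at week 5, where library 57 was highest, and had medians of 2.36 and 2.22 CPM at week 9. SCN8A, from a microbiota list, was called in none of the comparisons.

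Subunits of the vacuolar proton pump were called in both directions. ATP6V0A4, the a4 subunit of acid-secreting cells, was at 3.95 to 20.5 CPM (median 8.87) in NoCycW5 and 10.1 to 102 CPM (median 31.2) in CycW5 cows at week 5, and had medians of 51.2 and 36.7 CPM at week 9. The NoCycW5 week change was 2.42 ± 0.38 and the CycW5 week change 0.03 ± 0.39 (BH P = 0.99, edgeR). CycNoP4 cows had 15.9, 12.5, 6.86 and 4.43 CPM at week 5, lower than CycW5 cows by -1.95 ± 0.57 (BH P = 0.015, lost without library 58), and 30.8, 16.4 and 15.4 CPM at week 9 (1.07 ± 0.65, BH P = 0.23). ATP6V0D2, the d2 subunit known from osteoclasts and macrophages, was lower in CycW5 than in NoCycW5 cows at week 5. In NoCycW5 cows it was also lower at week 9 than at week 5. It was at 2.66 to 19.5 CPM (median 6.25) in NoCycW5 cows at week 5, with medians of 3.29 CPM in CycW5 cows at week 5 and 1.85 and 1.60 CPM at week 9. The call at week 5 held in 10 of the 22 fits that left out 1 library. CycNoP4 cows had 3.87, 2.18, 13.3 and 9.33 CPM at week 5 and 0.921, 2.02 and 0.779 CPM at week 9 (-2.54 ± 0.80, BH P = 0.023), lost without library 58, 79 or 94.

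ATP6V1G3, a kidney-type G subunit, was also lower at week 9 in NoCycW5 cows (medians 1.84 and 0.411 CPM). ATP6V1A, the catalytic subunit, had medians of 96.6 and 118 CPM at week 5 and 112 and 116 CPM at week 9, ATP6V1H 48.5, 59.1, 59.2 and 57.9 CPM, and ATP6V0B 71.0, 77.0, 86.9 and 87.4 CPM in the same order of groups. ATP6AP1, an accessory protein from a microbiota list, lay at 100 to 142 CPM in every library and was called in none of the comparisons.

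The P5-type ATPases ATP13A3, ATP13A4 and ATP13A5, of a family that includes polyamine transporters of late endosomes, were all higher in CycW5 than in NoCycW5 cows at week 5 and in NoCycW5 cows at week 9. ATP13A4 and ATP13A5 are neighbours, with 0 protein-coding genes between them in the RefSeq annotation of the ARS-UCD2.0 assembly, and how reads were shared between related copies was not analysed here. ATP13A5 was at 3.26 to 37.4 CPM (median 11.7) in NoCycW5 and 20.4 to 343 CPM (median 148) in CycW5 cows at week 5, and had medians of 247 and 174 CPM at week 9. ATP13A4 was at 20.8 to 80.6 CPM (median 49.2) and 31.8 to 777 CPM (median 76.0) at week 5, and had medians of 443 and 381 CPM at week 9, so that its CycW5 libraries of week 5 overlapped those of NoCycW5 more than for ATP13A5. The log2 difference at week 5 was 3.42 ± 0.50 for ATP13A5, 2.24 ± 0.52 for ATP13A4 and 0.96 ± 0.25 for ATP13A3.

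In CycNoP4 cows at week 5 ATP13A4 was at 536, 118, 70.3 and 56.6 CPM and ATP13A5 at 176, 43.3, 43.9 and 15.5 CPM, with library 51 far above the rest in both. ATP13A3 was at 123, 146, 131 and 70.9 CPM, and its NoCycW5 median was 55.1 CPM. All 3 were called higher than in NoCycW5 cows and missed the threshold without library 51. The NoCycW5 libraries of week 5 had entered the lists that named them, so these differences are a description. For ATP13A3 the log2 difference stayed between 1.12 and 1.42 with 1 library left out, with a highest BH P of 0.057 (edgeR), while it went down to 0.83 for ATP13A4 and 1.28 for ATP13A5. At week 9 the CycNoP4 levels were 611, 222 and 207 CPM for ATP13A4 and 360, 134 and 210 CPM for ATP13A5. ITPRIPL1 had medians of 8.37 and 15.6 CPM at week 5 and 18.6 and 18.5 CPM at week 9 in NoCycW5 and CycW5 cows.

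The 15 genes taken from microbiota lists alone were not chosen for cyclicity or week, although their lists used the same libraries. KCNT2 was called in 2 contrasts of CycW5 and NoCycW5 cows, CACNA1E, CACNB1 and CACNA2D1 in contrasts with CycNoP4 cows, and no other in any of the 8 comparisons. With 1 library left out, the KCNT2 call held in 9 of 22 fits at week 5. It missed the threshold in 6, and in 7 the gene did not pass the filter on low counts. For the NoCycW5 week change it held in 16 of 23 fits, and in the other 7 the gene did not pass the filter. The CACNA2D1 call against NoCycW5 cows held in 6 of 16. Of 13 tested, 1 was called at week 5 (background, 26.6%) and 1 in the NoCycW5 week change (background, 35.7%). In the CycNoP4 week change 2 were called (background, 19.6%). At week 5, 2 were called between CycNoP4 and CycW5 cows (background, 17.9%) and 3 between CycNoP4 and NoCycW5 cows (background, 16.4%). The microbiota scores could not be tied to libraries, so the relation that listed these genes was not analysed here. Of the 63 genes, 11 had a mean under 1 CPM over all libraries. Of these KCNA7, KCNS1 and TRPC7, with 49, 115 and 11 reads over all 50 libraries, passed no filter, and KCNV1, CACNA2D4 and GRIN3B passed only when the CycNoP4 libraries were in the fit.

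Other genes that regulate ion transport were followed from a list of 52, of which 21 had an identifier, all of them because the study had listed them. At week 5, 9 of 21 were higher and 3 lower in CycW5 cows (background, 26.6%), and in the NoCycW5 week change 11 were higher and 4 lower (background, 35.7%). S100G, a cytosolic calcium-binding protein of absorbing epithelia, had medians of 63.5 and 424 CPM at week 5 and 324 and 461 CPM at week 9. SLC12A1, the sodium-potassium-chloride cotransporter known from kidney, had medians of 0, 1.31, 3.62 and 1.5 CPM in the same order, and FXYD6, a regulator of Na,K-ATPase, was lower in CycW5 cows at week 5 by -0.99 ± 0.15. By the smallest BH P, the other genes lower in CycW5 cows were RYR3, a calcium release channel (-1.84), and ASIC3, an acid-sensing sodium channel (-1.99), and in the NoCycW5 week change RYR3 (-3.04) and SLC4A7, a sodium bicarbonate cotransporter (-0.94), were lower. In the CycNoP4 week change 4 of 21 were called, a share near the background of 19.6%. SGK2, a kinase that activates epithelial channels, and SLC8B1, the mitochondrial sodium-calcium exchanger, were higher at week 9 (1.99 ± 0.57 and 1.64 ± 0.45), and SGK1, a related kinase, and SLC26A2, a sulphate transporter, were lower (-1.2 ± 0.44 and -2.34 ± 0.62). The CycNoP4 level of SGK1 at week 5 reached 569 CPM in library 51, against a median of 100 CPM. In NoCycW5 cows SGK1 was higher at week 9, by 0.98 ± 0.18, and the difference between these 2 groups of cows was not tested.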

How the data were processed

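Endometrial biopsies gave 50 stranded mRNA libraries. The authors trimmed single-end reads, mapped them to the bovine UMD3.1 build (HISAT2) and assigned them to Ensembl genes (featureCounts, strand setting not given in the sources used here). The table the authors deposited holds whole-number counts per gene without normalization. The processing notes in the labels also name StringTie and edgeR, with no version.

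Counts were analysed in R 4.3.3 with edgeR 4.0.16 (TMM, filterByExpr, robust quasi-likelihood test), as 4 group means over the 43 CycW5 and NoCycW5 libraries and as 6 group means over 50 for contrasts with CycNoP4. Log2 CPM used a prior count of 2. The filters kept 15483 and 16120 genes, over which P was adjusted. The code was tested on simulated data. The lowest mean chi-square per gene over 1225 pairs of libraries was 27.9, where sampling noise gives about 1, so no pair agreed within sampling noise.

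Symbols were paired with Ensembl identifiers through the study's gene lists, whose other values were not used. For 6 of the 63 genes RefSeq gives an accession that the lists carry, and the symbol was the same in 6. Members and lists were chosen with earlier results of these data known. Values by group are given for genes called at week 5 or in the NoCycW5 week change with a mean of at least 1 CPM, and for those called in an independent comparison, KCNT2 and CACNA2D1 were added after their values were seen, and partner genes were named from the 3 higher and 3 lower with the smallest BH P. Other family members had no identifier and were not analysed here, nor was PGR. Cow, microbiota score and batch could not be tied to libraries. Alternatives were DESeq2 1.42.0, limma 3.58.1 (voom, with and without quality weights), other filters and leaving out libraries. Values of some members are not reported here.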

Additional observations from a re-analysis of the deposited data

Results flagged for a closer look

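In groups of 4 or 10 libraries, single libraries stood far from the rest of their group for several genes, by Dixon's ratio on CPM. The ratio was applied to 129 groups and flagged 23. Its limits give a call by chance in about 1 in 20 groups for normally distributed values. CPM were not shown to be so distributed, so the rate by chance is not known here. Library 72 (CycW5, week 9) was the highest of its group for TRPM3 (38.3 CPM, next 12.6), TRPM6 (27, next 13.8), GRIN1 (64.6, next 16.6), P2RY2 (39.2, next 24.8), ATP6V1A (167, next 131), ATP6V1H (76.9, next 63.5) and ITPRIPL1 (35, next 23.9). Library 70 (CycW5, week 5) was the highest for TRPV3 (7.72 CPM, next 1.73), CLIC1 (266, next 203) and ATP6V0A4 (102, next 52.8). Libraries that lay among the NoCycW5 libraries of week 5 were the highest of their groups for KCNE3 (34.7 CPM in library 57, next 5.79, and 28.8 CPM in library 87, next 10.1), SCN4B (5.79 CPM in library 57, next 3.28) and KCNN3 (6.01 CPM in library 89, next 3.04).

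Other CycW5 libraries that stood apart were library 13 for KCNN3 at week 5 (1.2 CPM, the lowest), library 12 for CLIC5 at week 5 (21.4 CPM), library 52 for ATP6V1G3 at week 5 (3.54 CPM), and at week 9 library 92 for SCN4B (5.61 CPM) and ATP6V0D2 (6.06 CPM), library 83 for CACNA1E (7.31 CPM) and library 98 for CHRNA1 (0.658 CPM). Among the 4 CycNoP4 libraries of week 5, library 58 was the highest for ATP6V1G3 (3.62 CPM, next 0.980) and library 51 for ATP13A4 (536 CPM, next 118).

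The week change differed between NoCycW5 and CycW5 cows for 16 genes, in a test of the difference itself whose groups had chosen these genes, so that the values are a description. On the log2 scale, the change in NoCycW5 minus that in CycW5 was 4.76 for TRPV3, 3.87 for GRIN1, 3.70 for ATP13A5, 3.63 for P2RX3, 2.93 for AQP4, 2.80 for TRPM3, 2.79 for ATP1B2, 2.59 for ATP13A4, 2.40 for CLIC5, 2.40 for ATP6V0A4, 2.36 for GRIA3, 1.71 for CLCN4, 1.48 for KCNN2, 0.94 for CLCN3, 0.73 for ITPRIPL1 and -1.51 for ANO1. With 1 library left out, the call held in 15 of 43 fits for GRIA3, 27 for ITPRIPL1 and 42 for ATP13A4.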

How the results depend on the processing

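The count of genes called at week 5 (35), in the NoCycW5 week change (40) and at week 9 (0) stayed within 1.5 times under each alternative run, and no called gene reversed. With 1 library left out these were 30 to 38, 37 to 41 and 0. The CycW5 week change (1, CHRNA1) was 0 with DESeq2 size factors, limma-voom, no filter, the stricter filter or without the 5 libraries, 12 with quality weights, and 0 to 3 with 1 library left out (3 without library 72). The difference between week changes (16) was 9 with limma-voom, 25 without the 5 libraries, an alternative chosen after seeing the data, and 13 to 22 with 1 library left out. The CycNoP4 week change (14) was 8 to 14 with 1 library left out. CycNoP4 against CycW5 (13) was 7 with limma-voom, 4 higher and 3 lower where edgeR gave 2 and 11, 5 and 4 with quality weights, and 6 to 16 with 1 library left out. CycNoP4 against NoCycW5 (11) was 7 with limma-voom, 17 without the 5 libraries and 0 to 19 with 1 library left out. The causes were not tested, apart from the smaller groups. Of 130 calls, 36 were lost with limma-voom and 25 with quality weights. No paired analysis was possible because replicate numbers follow the order of the samples and libraries are not linked to cows. The test of family members outside the lists was not run. Few CycNoP4 libraries and low counts limit the precision.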
